A study of Homo sapiens with 10 samples.

Results

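The 32 genes described here encode enzymes of fatty acid oxidation and proteins that build peroxisomes, and they were measured by RNA-seq in QGP-1 cells, an established human pancreatic neuroendocrine tumor line. They were chosen by gene name from the 35606 genes of the deposited tables: 16 genes of mitochondrial oxidation, 4 of peroxisomal oxidation and 12 PEX genes, which encode peroxins. All 32 had a mean of at least 1 CPM (read counts scaled to library size by the authors) in both tables, the limit for testing. The series holds 10 samples, 2 in each of 5 groups. In the knockdown table, QGP-1 cells stably expressing dCas9-KRAB, a Cas9 without nuclease activity joined to a repressor (CRISPR interference), carried either the single guide sgPIKFYVE-1 or the control guide sgNC after lentiviral transduction and puromycin selection. In the drug table, QGP-1 cells received DMSO, 1 µM apilimod, an inhibitor of the lipid kinase PIKfyve, or 100 nM Torin-1, an inhibitor of the kinase mTOR. The labels give 24 h for apilimod and Torin-1 and no time for DMSO, whereas the text of the paper gives a shorter time for the drugs. No label says that the 2 samples of a group came from separate cultures, so the p-values measure the spread between these samples, which may be technical.

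Long-chain fatty acids enter mitochondria as carnitine esters and are then shortened in repeated cycles of dehydrogenation, hydration, a second dehydrogenation and thiolysis. Electrons from the first step pass through the electron transfer flavoprotein to the respiratory chain. Very long and branched chains are first shortened in peroxisomes, whose membranes and enzyme import depend on peroxins. In many tissues PPAR receptors and PGC-1 coactivators control the genes of both organelles.

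The samples held an estimated 9.30 to 13.6 M reads. At that depth 3 reads are worth 0.227 to 0.329 CPM, which accounts for counting error alone. PIKFYVE, the target of the guide, was 101 and 97.5 CPM with sgNC and 10.9 and 12.5 CPM with sgPIKFYVE-1. All 8 neuroendocrine markers and all 4 epithelial markers averaged at least 1 CPM in every group. The neuroendocrine markers summed to 7275 to 7567 CPM with sgNC and 6236 to 6487 with sgPIKFYVE-1. In the drug table the sums were 7343 to 7349 CPM with DMSO, 6318 to 6533 with apilimod and 9304 to 9530 with Torin-1. Most of each sum was SCG2 and CHGB, so it does not describe the whole set. Over the knockdown table SCG2 spanned 3068 to 3238 CPM and CHGB 1555 to 2586 CPM. Over the drug table they spanned 3187 to 5622 and 1442 to 1940 CPM. Summed immune markers lay between 6.08 and 7.44 CPM with sgNC and between 16.9 and 19.4 CPM with sgPIKFYVE-1. Most of this was LYZ, while CD3E was at 0 in every sample and PTPRC reached at most 0.987 CPM. The 4 fibroblast markers summed to between 10.1 and 10.4 CPM with sgNC and between 6.18 and 8.03 CPM with sgPIKFYVE-1. The 3 endothelial markers summed to at most 3.93 CPM in any sample.

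Levels in the control samples were compared per length of transcript. ACADVL, the very-long-chain acyl-CoA dehydrogenase of the inner membrane, was the highest member with 183 CPM per kb of its principal transcript in sgNC and 166 CPM per kb in DMSO. ETFB, a subunit of the electron transfer flavoprotein, followed with 70.6 and 73.4 CPM per kb, although in sgNC its range overlapped that of HSD17B4. In DMSO, the ranges of the next genes, HADHA and ECHS1, overlapped at 66.3 to 70.3 and 64.1 to 69.1 CPM per kb, so their order was within the spread of the samples. Among the peroxisomal enzymes HSD17B4, the D-bifunctional protein, was highest with 68.2 CPM per kb in sgNC and 55.6 in DMSO. EHHADH, the L-bifunctional protein, was the lowest member in both tables, with 1.11 and 0.464 CPM per kb. Of the PEX genes, PEX19, a receptor for peroxisomal membrane proteins, was highest with 24.1 and 26.6 CPM per kb. PEX26 was left out of this ordering because its principal transcript in GENCODE release 29 is unusually long at 18.4 kb.

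PIKFYVE knockdown was accompanied by higher RNA of most mitochondrial oxidation genes and by lower RNA of the abundant first-step enzyme ACADVL. Of the 32 members, 10 (31.25%) were higher and 4 (12.5%) were lower at an adjusted p under 0.05 (limma, Benjamini-Hochberg adjustment across the 13591 genes that were tested). Over all genes tested, 21.6% were higher and 20.9% lower. The mitochondrial group held 9 of the higher genes and 2 of the lower ones among its 16 members. Its median log2 difference was 0.22, beside -0.0042 for all genes. Peroxisomal oxidation and the PEX genes had medians of -0.066 and 0.0047, with 1 of 4 and 2 of 12 members called. Transcripts of the mitochondrial genome moved in the same libraries: their summed value was 68260 and 68820 CPM with sgNC and 85830 and 85190 CPM with sgPIKFYVE-1. The part of this, and of the marker differences, in the members' results was not tested. In such bulk samples, fewer cells of a kind and less RNA per cell cannot be told apart.

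**Figure D1:**
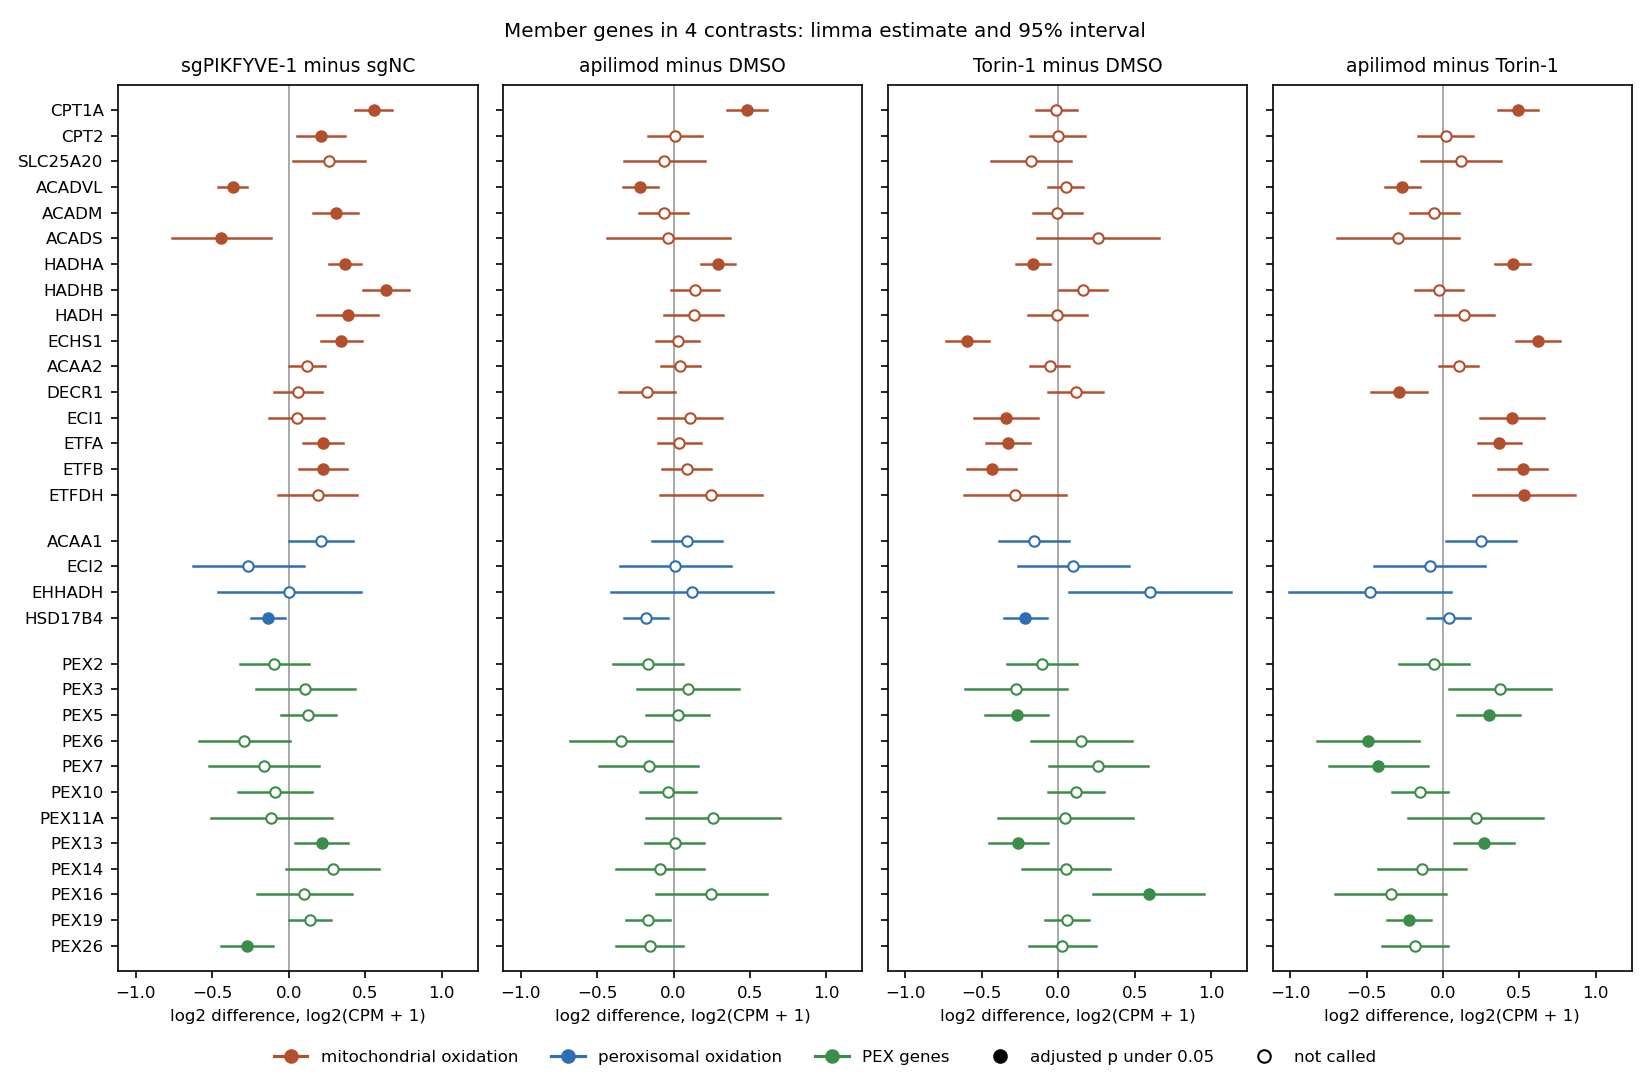
Log2 differences on the log2(CPM + 1) scale (x axis) of the 32 member genes (y axis) in 4 contrasts, with 95% intervals from limma; filled points have an adjusted p under 0.05 and colors mark the 3 member groups. Of the 16 mitochondrial genes, 9 (56.25%) lie to the right of 0 as filled points in the knockdown, 2 (12.5%) with apilimod and 0 with Torin-1. Of all genes tested, 21.6%, 5.75% and 16.6% were higher in these contrasts, so the counts are not comparable without those shares.

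The carnitine shuttle was led by CPT1A, the outer-membrane enzyme that makes acylcarnitines and controls the entry of long chains. CPT1A was 96.4 and 97.1 CPM with sgNC and 142 and 144 CPM with sgPIKFYVE-1. The groups were far apart compared with their own spread, and the log2 difference was 0.56 (SE 0.058, adjusted p = 2.89e-07). CPT2, which turns acylcarnitines back into acyl-CoA inside the mitochondrion, rose less, by 0.21 on the log2 scale (adjusted p = 0.0284). SLC25A20, the carrier that exchanges acylcarnitine for carnitine, had a log2 difference of 0.26 that did not pass (adjusted p = 0.0669).

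The acyl-CoA dehydrogenases of different chain length moved in different directions. ACADVL was 422 and 430 CPM with sgNC and 334 and 326 CPM with sgPIKFYVE-1, a log2 difference of -0.37 (SE 0.045, adjusted p = 1.84e-06). The short-chain enzyme ACADS was 13.0 and 13.1 CPM with sgNC and 9.86 and 8.85 CPM with sgPIKFYVE-1, a log2 difference of -0.44 (SE 0.15, adjusted p = 0.0277). Both control samples of either gene lay above both knockdown samples. The medium-chain enzyme ACADM was in contrast higher by 0.31 on the log2 scale (adjusted p = 0.00152).

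HADHA and HADHB encode the alpha and beta subunits of the mitochondrial trifunctional protein, which carries out the last 3 steps of each cycle for long chains. HADHB had the highest log2 difference of all members, 0.64 (SE 0.072, adjusted p = 7.18e-07), with 69.0 and 80.2 CPM in sgNC and 116 and 117 CPM in sgPIKFYVE-1. HADHA, singled out after its values were seen because of its partner, was 187 and 191 CPM with sgNC and 249 and 240 CPM with sgPIKFYVE-1. Its log2 difference was 0.37 (SE 0.051, adjusted p = 8.11e-06). Both subunits were thus higher in every knockdown sample than in every control sample. The ratio of HADHB to HADHA values was 0.370 and 0.419 with sgNC and 0.464 and 0.487 with sgPIKFYVE-1.

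The pair is transcribed in opposite directions from neighboring starts on chromosome 2. In RefSeq on GRCh38.p14 HADHA starts at position 26244632 on the reverse strand and HADHB at 26244939 on the forward strand, 307 bases apart. In GENCODE release 29 the HADHB gene begins earlier, at position 26243170, within the bounds of HADHA, which reaches to 26244726. The stretch at chr2:26244727-26244894, forward strand, lies there between the first exons of their principal transcripts, although an alternative HADHB transcript begins inside it. It is shown because both genes moved together in the knockdown, and it has a GC content of 71.4%:

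HADHA-HADHB interval: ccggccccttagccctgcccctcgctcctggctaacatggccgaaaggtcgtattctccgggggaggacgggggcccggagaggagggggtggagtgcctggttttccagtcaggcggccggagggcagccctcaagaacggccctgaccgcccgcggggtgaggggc

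No base of it is capitalized, since none of 3 motifs searched on both strands was found in it. These were CACGTG (the E-box), TCACNCCAC with N for any base (a sterol response element) and a strict form of DR1, the direct repeat with a 1-base spacer to which PPAR receptors bind. Of the 26 members with a promoter in the RefSeq table, only PEX10 held CACGTG in the 250 bases before a start, with its first base 240 bases before that start. It was found in 1 of 35 member windows, beside 6.35% of all 35116 promoter windows of the same length. Counted by gene, the motif occurs in 7.73% of 27305 genes. DR1 and the sterol response element were found in no member window and occur in 0.0171% and 0.883% of all windows. These matches describe letters in these windows and do not mark binding. The members not in that table were DECR1, ETFDH, ACAA1, EHHADH, PEX2 and PEX14.

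The enzymes of shorter chains followed the same direction in part. HADH, which oxidizes short- and medium-chain hydroxyacyl-CoA, was higher by 0.38 on the log2 scale (adjusted p = 0.00298). ECHS1, the short-chain enoyl-CoA hydratase, was 86.9 and 96.2 CPM with sgNC and 116 CPM in both knockdown samples. Its log2 difference was 0.34 (SE 0.065, adjusted p = 0.000277), with no overlap between the groups. The thiolase ACAA2 and the auxiliary enzymes for unsaturated chains, DECR1 and ECI1, had log2 differences of 0.12, 0.060 and 0.051 and were not called. Both subunits of the electron transfer flavoprotein were higher, ETFA by 0.22 (adjusted p = 0.00775) and ETFB by 0.22 (adjusted p = 0.0215) on the log2 scale. Their dehydrogenase ETFDH had a log2 difference of 0.19 (adjusted p = 0.235).

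In the peroxisomal group HSD17B4 was lower, with 185 and 181 CPM in sgNC and 162 and 171 CPM in sgPIKFYVE-1. That log2 difference of -0.13 only just passed (SE 0.053, adjusted p = 0.0492). The thiolase ACAA1 was 30.3 and 28.5 CPM with sgNC and 36.0 and 32.5 CPM with sgPIKFYVE-1, a log2 difference of 0.21 (adjusted p = 0.0992). ECI2, an isomerase for unsaturated chains, was 14 and 10.2 CPM with sgNC and 8.99 and 10.7 CPM with sgPIKFYVE-1, so its groups overlapped. EHHADH stayed between 3.71 and 4.81 CPM in all 4 samples, with a 95% interval of the log2 difference from -0.46 to 0.47.

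Among the PEX genes, PEX13, part of the docking complex for imported enzymes, was higher by 0.22 on the log2 scale (adjusted p = 0.0432). PEX26, which anchors the export ATPases to the membrane, had a log2 difference of -0.27 (adjusted p = 0.0103). PEX14, the docking partner of PEX13, was 11.7 and 11.1 CPM with sgNC and 13.8 and 14.5 CPM with sgPIKFYVE-1, yet its log2 difference of 0.29 did not pass (adjusted p = 0.120). PEX6, one of the export ATPases, was 15.2 and 17.6 CPM with sgNC and 14.3 and 12.2 CPM with sgPIKFYVE-1, a log2 difference of -0.29 (adjusted p = 0.114). The 10 PEX genes not called lay between -0.29 and 0.29 on the log2 scale. Reads of PEX10 cannot be told apart from those of RER1 without strand information, which the sources used here do not give, since 39.1% of its exon bases overlap RER1 on the other strand and RER1 averaged 107 CPM.

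The calls of CPT1A, ACADVL, HADHA, HADHB and ECHS1 were kept under all 12 settings tried, and the other 9 were lost under at least 1 of them. The count of 14 fell to 9 without the filter on low values and to 7 without the variance trend. Without the first sgNC sample 10 members were called, with CPT2, ACADS, HSD17B4 and PEX13 lost. Without the second sgNC sample 7 were called, with ACADS, HADH, ETFA, ETFB, HSD17B4, PEX13 and PEX26 lost. Without the first sgPIKFYVE-1 sample 9 were called, with CPT2, ETFB, HSD17B4, PEX13 and PEX26 lost, and without the second 12 were called, with ACADS and ETFA lost.

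**Figure D2:**
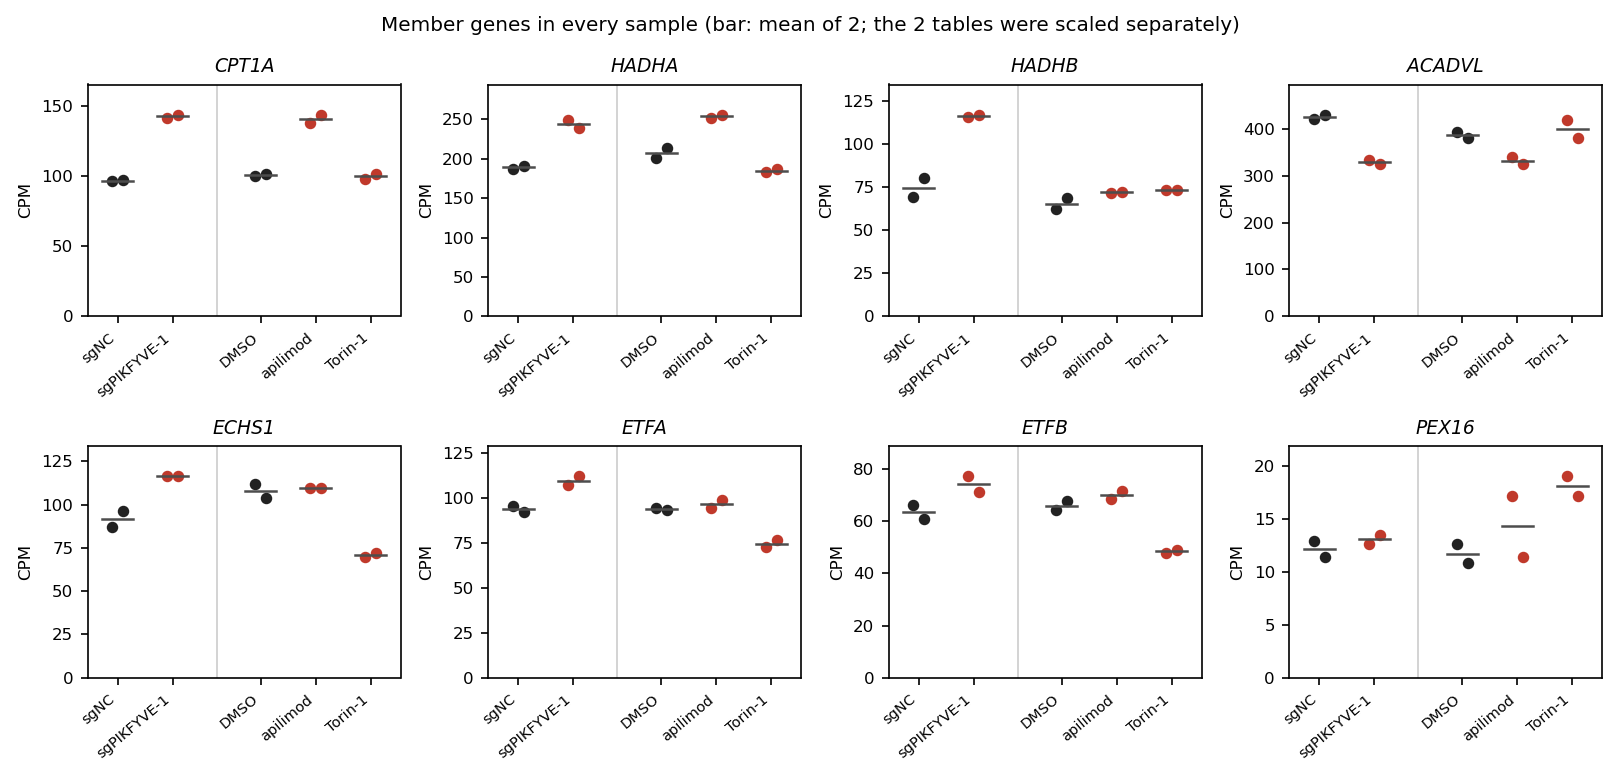
CPM values (y axis, from 0) of 8 member genes in every sample of the 5 groups (x axis), with a bar at each group's mean; the knockdown and drug tables stand left and right of the vertical line and were scaled separately. CPT1A lies between 138 and 144 CPM in the sgPIKFYVE-1 and apilimod samples and at 102 CPM or less in all others.

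Apilimod was compared with DMSO to see the effect of inhibiting the kinase instead of lowering its RNA. Only 3 members were called, all in the mitochondrial group: CPT1A and HADHA were higher and ACADVL was lower. That is 6.25% of members higher and 3.125% lower, near the 5.75% and 2.79% of all 13520 genes tested. Among the calls over all genes, 67.4% were higher, a share that became 55.1% after quantile normalization and 54.2% after rescaling each sample to the same sum. CPT1A was 99.7 and 102 CPM with DMSO and 138 and 144 CPM with apilimod, a log2 difference of 0.48 (SE 0.061, adjusted p = 0.000131). HADHA was 201 and 214 CPM with DMSO and 252 and 256 CPM with apilimod, a log2 difference of 0.29 (SE 0.053, adjusted p = 0.00251). ACADVL was 393 and 380 CPM with DMSO and 340 and 325 CPM with apilimod, a log2 difference of -0.22 (SE 0.053, adjusted p = 0.0194). In each of these 3 genes both treated samples lay on the same side of both DMSO samples. Since the calls rest on these same samples, this adds no further support to them.

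None of the other 13 mitochondrial genes was called with apilimod. ETFDH, the dehydrogenase that takes up electrons from the flavoprotein, had a log2 difference of 0.24 with overlapping groups (adjusted p = 0.416). HADHB was 62.2 and 68.3 CPM with DMSO and 71.5 and 72.1 CPM with apilimod, a log2 difference of 0.14 with a 95% interval from -0.019 to 0.30 (adjusted p = 0.305). The ratio of HADHB to HADHA values was 0.309 and 0.320 with DMSO and 0.284 and 0.282 with apilimod. ECHS1 was 112 and 104 CPM with DMSO and 109 and 110 CPM with apilimod, and its groups overlapped. ACADS was 7.97 and 5.64 CPM with DMSO and 6.89 and 6.20 CPM with apilimod, so its DMSO samples enclosed the treated ones. Over the 16 genes the median log2 difference was 0.042, beside -0.0057 for all genes.

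No peroxisomal enzyme and no PEX gene was called with apilimod by limma, and 1 of 4 and 2 of 12 had an unadjusted p under 0.05. The share of all genes at that unadjusted limit was not computed. HSD17B4 was lowest of the enzymes, with 153 and 146 CPM in DMSO and 136 and 128 CPM in apilimod and a log2 difference of -0.18 (adjusted p = 0.129). EHHADH was 1.99 and 1.58 CPM with DMSO and 2.33 and 1.74 CPM with apilimod, a level at which the 95% interval of the log2 difference ran from -0.41 to 0.65. PEX6 was lowest of the PEX genes, with 9.69 and 8.79 CPM in DMSO and 7.28 and 6.88 CPM in apilimod and a log2 difference of -0.34 (adjusted p = 0.223). PEX11A, which acts in peroxisome proliferation, was highest, with 3.71 and 3.16 CPM in DMSO and 4.29 and 4.32 CPM in apilimod and a log2 difference of 0.26 (adjusted p = 0.528). The group medians were 0.051 for the enzymes and -0.060 for the PEX genes. CPT1A alone kept its call under all 15 settings tried. The count of 3 fell to 1 without the first DMSO sample, where HADHA and ACADVL were lost, and to 2 without the second DMSO or the second apilimod sample, where ACADVL was lost.

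With Torin-1, RNA of the electron transfer flavoprotein and of several enzymes of the cycle was lower, and CPT1A was near its DMSO level. Of the 32 members, 1 (3.125%) was higher and 8 (25%) were lower, beside 16.6% higher and 21.8% lower over all genes tested. The lower genes were ECHS1, ETFA, ETFB, ECI1 and HADHA in mitochondrial oxidation, HSD17B4 in the peroxisome, and PEX5 and PEX13. The single higher gene was PEX16. The median log2 difference of the mitochondrial group was -0.034, and those of the peroxisomal enzymes and the PEX genes were -0.029 and 0.050, beside -0.012 for all genes. The share of members lower was thus close to that of all genes.

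ECHS1 fell most of the called members, from 112 and 104 CPM with DMSO to 69.9 and 71.9 CPM with Torin-1. The log2 difference was -0.59 (SE 0.066, adjusted p = 1.07e-05) and the groups were far apart. ETFB and ETFA, named with their values after these were seen, moved together. ETFB was 64.3 and 67.8 CPM with DMSO and 47.9 and 49.1 CPM with Torin-1, a log2 difference of -0.44 (SE 0.075, adjusted p = 0.000433). ETFA was 94.9 and 93.5 CPM with DMSO and 72.9 and 76.5 CPM with Torin-1, a log2 difference of -0.33 (SE 0.066, adjusted p = 0.00142). ETFDH, which passes their electrons to ubiquinone, had a log2 difference of -0.29 that was not called (adjusted p = 0.167). ECI1 had a log2 difference of -0.34 (adjusted p = 0.0131).

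The subunits of the trifunctional protein separated with Torin-1. HADHA was 183 and 187 CPM, below both DMSO samples, with a log2 difference of -0.16 (SE 0.053, adjusted p = 0.0244). HADHB was 73.1 CPM in the first and 73.0 CPM in the second sample, above both DMSO samples, with a log2 difference of 0.16 that was not called (adjusted p = 0.0935). The ratio of HADHB to HADHA values was 0.401 and 0.390 with Torin-1, above the 0.309 and 0.320 of DMSO. CPT1A was 98.0 and 102 CPM, with a log2 difference of -0.012 and a 95% interval from -0.14 to 0.12. ACADVL was 419 and 381 CPM, overlapping DMSO. ACADS was 9.13 and 7.42 CPM and also overlapped DMSO, with a log2 difference of 0.26 (adjusted p = 0.297).

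In the peroxisomal group HSD17B4 was 122 and 136 CPM with Torin-1, below both DMSO samples, a log2 difference of -0.21 (SE 0.066, adjusted p = 0.0205). EHHADH was 3.93 and 2.59 CPM, above both DMSO samples, but with these low values the log2 difference of 0.60 did not pass (SE 0.25, adjusted p = 0.0713). Log2(CPM + 1) understates the change of a gene this low. PEX5, the import receptor for most matrix enzymes, had a log2 difference of -0.27 (adjusted p = 0.0378), and its docking partner PEX13 one of -0.26 (adjusted p = 0.0356). PEX16, which acts in the early steps of membrane assembly, was 12.6 and 10.8 CPM with DMSO and 19.0 and 17.2 CPM with Torin-1, a log2 difference of 0.59 (SE 0.17, adjusted p = 0.0133). PEX3, its partner in membrane assembly, was 13.5 and 14.4 CPM with DMSO and 9.50 and 13.5 CPM with Torin-1, a log2 difference of -0.28 that was not called (adjusted p = 0.183).

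The calls of ECHS1, ETFA and ETFB were kept under all 15 settings tried. The count of 9 fell to 4 without the filter on low values, to 3 without the variance trend, to 5 without either DMSO sample and to 4 without the first Torin-1 sample. HSD17B4 and PEX13 were lost in each of those 3 sample removals. ECI1 was lost without the first DMSO or the second Torin-1 sample, PEX5 without the first DMSO or the first Torin-1 sample, and HADHA and PEX16 without the second DMSO or the first Torin-1 sample. Without the second Torin-1 sample 9 members were called, but ECI1 and PEX13 were not among them. HADHA, PEX5 and PEX13 also lost their calls under quantile normalization and under rescaling to the same sum. The mitochondrial median became 0.021 after quantile normalization.

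**Figure D3:**
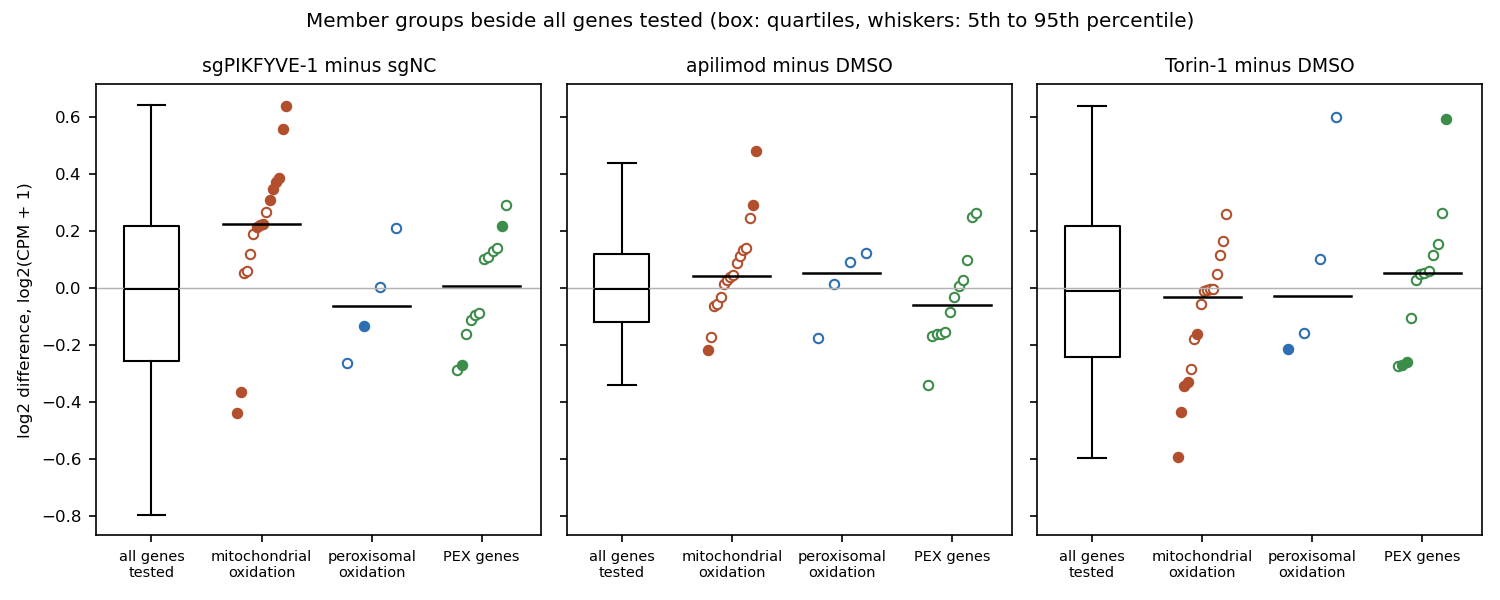
Log2 differences on the log2(CPM + 1) scale (y axis) of the members in 3 groups beside all genes tested (x axis), for the 3 comparisons with a control; boxes show quartiles of all genes with whiskers from the 5th to the 95th percentile, points are members, filled where the adjusted p was under 0.05, and bars are group medians. The mitochondrial median stands at 0.22 in the knockdown, 0.042 with apilimod and -0.034 with Torin-1.

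The drugs share their DMSO samples, so they were also compared with each other. Apilimod samples were higher than Torin-1 samples in 9 members (28.1%) and lower in 5 (15.6%), beside 26.2% and 20.5% of all genes tested. The higher genes included CPT1A, with a log2 difference of 0.49 (SE 0.061, adjusted p = 1.84e-05), and HADHA, with 0.46 (SE 0.053, adjusted p = 9.11e-06). ECHS1 differed most, by 0.62 on the log2 scale (SE 0.066, adjusted p = 3.97e-06). All 3 genes of the electron transfer flavoprotein and its dehydrogenase were higher with apilimod. Their log2 differences were 0.37 for ETFA, 0.52 for ETFB and 0.53 for ETFDH. Of the ETFDH exon bases, 10.9% overlap PPID on the other strand, and PPID averaged 49.0 CPM in the drug samples. Reads from those bases cannot be told apart without strand information. ECI1, PEX5 and PEX13 were also higher, by 0.45, 0.30 and 0.27 on the log2 scale. ACADVL was lower with apilimod, with a log2 difference of -0.27 (SE 0.053, adjusted p = 0.000971), as was DECR1 with -0.29.

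PEX6, PEX7 and PEX19 were lower with apilimod than with Torin-1, with log2 differences of -0.49, -0.42 and -0.22 and adjusted p-values of 0.0180, 0.0327 and 0.0141. PEX7 is the import receptor for a smaller set of enzymes than PEX5. HADHB did not separate the drugs, with a log2 difference of -0.025 and a 95% interval that ended at 0.13 on the upper side. None of the 4 peroxisomal enzymes was called by limma, and 1 of 4 had an unadjusted p under 0.05, a limit at which the share of all genes was not computed. The calls of CPT1A, ACADVL, HADHA, ECHS1, ECI1, ETFA and ETFB were kept under all 15 settings. The count of 14 fell to 9 without the second apilimod sample, where PEX5, PEX6, PEX7, PEX13 and PEX19 were lost. It was 11 without the first Torin-1 sample, with PEX5, PEX7, PEX13 and ETFDH lost, 13 without the second, with DECR1, PEX6 and PEX19 lost, and 12 without the first apilimod sample, with DECR1, ETFDH and PEX7 lost. Over the 4 contrasts 10 members were called in none, but the share of all genes called in none was not computed.

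Other genes of the same pathways were counted in the same way. In the knockdown, of 21 other mitochondrial genes tested 5 (23.8%) were higher and 7 (33.3%) lower, beside 21.6% and 20.9% of all genes. CPT1B, the muscle isoform of CPT1A, was 16.7 and 15.1 CPM with sgNC and 8.86 and 5.18 CPM with sgPIKFYVE-1, a log2 difference of -1.11 (adjusted p = 0.000115), opposite in sign to CPT1A. SLC22A5, the plasma membrane carnitine carrier, and ACAD11 were also lower, with log2 differences of -0.61 and -0.57, while OXCT1, which uses ketone bodies, was higher by 0.65. Of 26 other peroxisomal genes 8 (30.8%) were higher and 1 (3.85%) lower, led by the racemase AMACR with 0.86 and the fatty acid transporter ABCD3 with 0.80 on the log2 scale. The carrier SLC25A17 was higher by 0.36, and the thioesterase ACOT8 had a log2 difference of -0.43. Of the 9 other peroxins and fission genes 1 was called, TRIM37, higher by 0.24.

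With apilimod 1 of the 21 other mitochondrial genes (4.76%) was called, the thioesterase ACOT9, higher by 0.54. Of the 26 other peroxisomal genes 1 (3.85%) was called, HACL1, an enzyme of alpha-oxidation, with a log2 difference of -0.65. These shares were near those of all genes tested with apilimod, 5.75% higher and 2.79% lower. With Torin-1, 3 of the 21 (14.3%) were higher and 5 (23.8%) lower, near the 16.6% and 21.8% of all genes, with ACOT9 at 0.61, ACAD10 at 0.53, HSD17B10 at -0.60 and ACOT13 at -0.50 on the log2 scale. Of the 26 other peroxisomal genes 1 (3.85%) was higher and 10 (38.5%) were lower with Torin-1. The lower ones included DECR2 at -0.90, ABCD3 at -0.46, PXMP2 at -0.46 and catalase (CAT) at -0.46. DECR2 only just passed (limma, SE 0.34, adjusted p = 0.0491). It was 9.07 and 8.155 CPM with DMSO and 7.62 and 2.09 CPM with Torin-1, so its size rested mostly on the second Torin-1 sample. TRIM37 and FIS1, the latter a gene of organelle fission, had log2 differences of -0.22 and -0.22 with Torin-1.

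Some regulators of the pathway and PPAR targets were called in each of the 3 comparisons with a control. PPARGC1A, which encodes the coactivator PGC-1alpha, was 15.2 and 16.2 CPM with sgNC and 31.2 and 35.1 CPM with sgPIKFYVE-1, a log2 difference of 1.03 (adjusted p = 6.76e-07). It was 10.1 and 9.37 CPM with DMSO, 29.4 and 30.6 CPM with apilimod and 14.4 and 17.2 CPM with Torin-1. Those log2 differences were 1.53 for apilimod (adjusted p = 1.79e-06) and 0.64 for Torin-1 (adjusted p = 0.00137), and apilimod exceeded Torin-1 by 0.89 (adjusted p = 6.04e-05). Its paralog PPARGC1B was higher in the knockdown by 0.83 and with apilimod by 0.47, and lower with Torin-1, with a log2 difference of -0.53. PDK4, a kinase that restrains pyruvate oxidation, was 190 and 192 CPM with DMSO, 398 and 436 CPM with Torin-1 and 234 and 245 CPM with apilimod. UCP2, a carrier of the inner mitochondrial membrane, was higher by 1.10 in the knockdown and by 0.52 with apilimod. PLIN2, which coats lipid droplets, had a log2 difference of -0.96 in the knockdown. Of 14 tested in the knockdown, 5 regulators and PPAR targets (35.7%) were higher and 1 (7.14%) lower, beside 21.6% and 20.9% of all genes. With apilimod 4 (30.8%) were higher and 0 lower of 13, beside 5.75% and 2.79% of all genes. With Torin-1 2 (15.4%) were higher and 1 (7.69%) lower, beside 16.6% and 21.8%, so neither share exceeded that of all genes.

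**Figure D4:**
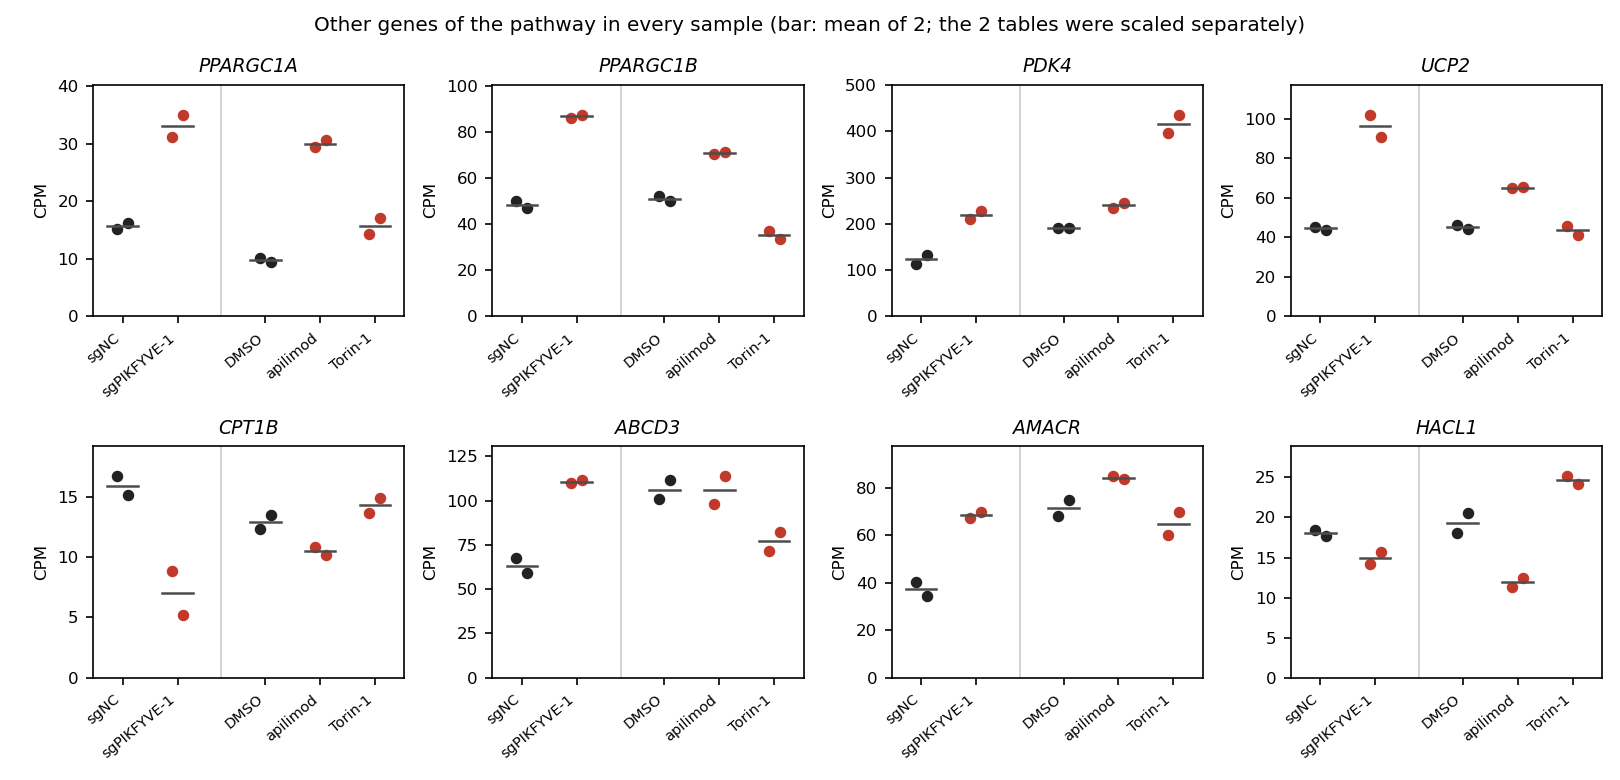
CPM values (y axis, from 0) of 8 pathway genes that are no members, in every sample of the 5 groups (x axis), with a bar at each group's mean; the knockdown and drug tables stand left and right of the vertical line and were scaled separately. PPARGC1A lies at 29.4 CPM or more in the sgPIKFYVE-1 and apilimod samples and at 17.2 CPM or less in all others.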

How the data were processed

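RNA-seq values of 10 QGP-1 samples were used, 2 in each of 5 groups taken from the sample labels. Library preparation is described as oligo(dT) selection in the methods and as ribosomal RNA depletion in the labels. The authors demultiplexed with bcl2fastq 2.20, trimmed with Trimmomatic, summed transcripts to genes and scaled with TMM in edgeR. The submitters' processing notes also name FastQC, DESeq2 and hg38. The quantifier and annotation are not given in the sources used here. What the authors deposited is a CPM-scale signal, with a separately normalized table for each experiment, so no test was made between the tables. Only 64.9% to 68.8% of low values were whole reads (within 0.01), so no count model was fitted. Depth was estimated from the spacing of low values.

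Values were transformed to log2(CPM + 1), which understates changes of low genes, and genes averaging 1 CPM or more in a table were fitted by lmFit and eBayes with a trend (limma 3.58.1, R 4.3.3). The knockdown fit used 4 samples and the drug fit 6. Calls had a Benjamini-Hochberg adjusted p, taken across every tested gene, under 0.05. Where samples of called genes are said not to overlap, this only describes the values, since the calls rest on the same samples. The share of all genes without overlap is not given here. The members and all lists were chosen with earlier results of these data known. Values in every sample are given for members with an adjusted p under 0.05 and an absolute log2 difference of at least 0.5 against a control, and for the highest and lowest member of each group in each comparison; of the other lists up to 4 called genes per comparison are named by size. No pair of replicates was closer than sampling noise, with median chi-square values between 1.87 and 2.63 times the expectation. Of the member IDs, 10 matched GENCODE release 29 with version and 22 without. Alternatives were pseudocounts of 0.1 and 0.5, no filter, a mean of at least 5, quantile normalization, rescaling every sample to the same sum, no variance trend, a replicate block, only the compared groups (drugs) and each sample left out. The procedure was also run on simulated counts with the same dispersion for every gene. The real values differ from these, so that run does not measure the error of the calls here. ACADL, ACOX2, ABCD2, PIPOX, PPARG, RXRB and ANGPTL4 fell under the limit in both tables, and PPARD in the drug table. Protein sequences and the guide's position were not analysed here. Some genes of the other lists are not reported here.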

Additional observations from a re-analysis of the deposited data

How the results depend on the processing

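No called member changed sign under any setting. Beside the main counts of 14, 3, 9 and 14 members called (knockdown, apilimod, Torin-1, apilimod against Torin-1), the knockdown count was 9 without the filter on low values and 7 without the variance trend. The apilimod count was 1 without the trend. The Torin-1 count was 4 without the filter and 3 without the trend. With each sample left out in turn the counts lay between 7 and 12, 1 and 3, 4 and 9, and 9 and 14. The cause was not tested. A sample left alone in its group was assumed to vary like the others. Over all genes, 5772 calls in the knockdown became 3709 without the trend. For apilimod, 1155 became 565 without the filter, 466 without the trend, 656 and 597 without the first and second DMSO sample and 689 without the first apilimod sample. No scaling moved the median of all genes by more than 0.1.

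Replicate numbers are shared between groups in the labels, but with 2 pairs they mark no known batch: deviations of same-numbered samples correlated at 0.037 in the knockdown and 0.043 to 0.10 between drug groups. With the replicate number as a block, 14, 3, 11 and 15 members were called, and 1756 genes in all with apilimod. With 2 samples a group and 9.30 to 13.6 M reads, differences of members under 10 CPM had 95% intervals up to 0.53 to either side.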
